A study of Mus musculus with 14 samples.

Results

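Gpr35, the gene of the G protein-coupled receptor GPR35, was followed through both RNA-sequencing experiments of the series. It is 1 of 39179 genes in the table of the differentiation time course and 1 of 35886 genes in the sorted cells, where it is the sum of 6 transcripts among 116747. The gene was chosen because its rise from day 1 to day 14 is among the 5 largest in the time course, so its levels by day are described here without a test. The comparison of day 10 with day 7 and that of the sorted cells did not enter this choice, and both were tested.

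All samples are Ocy454 cells, an osteocyte-like mouse cell line that carries a thermosensitive large T antigen, divides at 33 °C and differentiates at 37 °C. The differentiation experiment has 8 libraries, with biological duplicates at days 1, 7, 10 and 14 at 37 °C. The sorting experiment has 6 libraries from unmodified cells stained for CD61 (integrin beta 3, the product of Itgb3) after 17 days of differentiation, 3 from the 10% of live cells with the highest CD61 fluorescence and 3 from the 10% with the lowest. No group carries a genetic change or a drug, and every group comes from the same cell line. By the study's methods the sorted cells came from 3 separately collected groups of cells, and the labels do not say whether a CD61-low and a CD61-high library of the same number came from the same group.

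GPR35 is a class A receptor of the plasma membrane that is formally an orphan. Kynurenic acid (a product of tryptophan breakdown), lysophosphatidic acid and the serotonin product 5-HIAA have been proposed as its ligands, and CXCL17 has been proposed and contested. The receptor couples to Gi/o and to G12/13 proteins, recruits beta-arrestin, and is best known from intestinal epithelium, immune cells and adipose tissue.

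Gpr35 (ENSMUSG00000026271) lies on the plus strand of chromosome 1 at chr1:92878587-92914113 of GRCm39. GENCODE M39 annotates 7 transcripts, and 6 of them are in the files. Gpr35-202, Gpr35-203, Gpr35-205 and the unmeasured Gpr35-207 hold the same reading frame of 307 codons in the last exon (coding positions 92910290 to 92911210) and differ in their noncoding first exon. The first exon spans 92900836 to 92901003 in Gpr35-205 and 92906644 to 92907023 in Gpr35-203. Gpr35-201 shares the first exon of Gpr35-205 but its last exon starts inside the reading frame, at 92910866. Gpr35-204 and Gpr35-206 start farther upstream and are annotated only to part of the reading frame.

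The 250 bases before the first exons of Gpr35-205 and Gpr35-203, the transcripts with the most reads in the sorted cells, are given because the transcripts differ by where they start. They were read from the plus strand of GRCm39, 5′ to 3′, at chr1:92900586-92900835 and chr1:92906394-92906643. They overlap no annotated exon of Gpr35. Capitals mark ACGTG on either strand, the core of the hypoxia response element.
Gpr35-205: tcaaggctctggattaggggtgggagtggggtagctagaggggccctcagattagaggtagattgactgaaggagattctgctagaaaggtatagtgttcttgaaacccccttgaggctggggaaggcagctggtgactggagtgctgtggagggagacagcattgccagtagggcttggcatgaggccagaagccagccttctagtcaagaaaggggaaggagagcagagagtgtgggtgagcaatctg
Gpr35-203: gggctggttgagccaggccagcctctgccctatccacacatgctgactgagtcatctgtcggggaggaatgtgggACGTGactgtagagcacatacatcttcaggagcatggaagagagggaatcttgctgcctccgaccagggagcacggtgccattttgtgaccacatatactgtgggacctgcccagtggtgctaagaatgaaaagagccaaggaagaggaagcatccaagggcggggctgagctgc
ACGTG occurs once, 175 to 171 bases before the start of Gpr35-203, and not in the Gpr35-205 window. The Gpr35-203 window also holds TGANTCA, the AP-1 motif, at 203 to 197 bases and TGTGGT, the RUNX motif, at 87 to 82 bases before the start, the latter on the minus strand. Neither window holds TATAAA. Of 21732 windows of 250 bases before protein-coding genes in the same annotation, 16.4% hold ACGTG, 6.45% TGANTCA, 13.7% TGTGGT and 12.5% TATAAA on either strand, so each of these letters is found before many genes. No overlap between motifs was present in the Gpr35-203 window.

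The differentiation libraries hold 27518605 to 34311238 reads and the sorted libraries 18815602 to 19220064 estimated counts. Itgb3, the gene the cells were sorted by, was at 5.31, 5.54 and 6.10 CPM (read counts scaled to the library total) in CD61-low cells and at 130.1, 100.1 and 103.6 CPM in CD61-high cells after TMM scaling, an edgeR correction for library composition. All 3 CD61-high libraries were thus above all CD61-low libraries for the sorted gene. Of 14 osteoblast and osteocyte markers 12 could be tested in the sort, and 11 were called higher in CD61-high cells, where 4.84% of all 12077 genes were. Calls throughout required both an adjusted p under 0.01 and an absolute Log2FC (log2 of the fold change, positive where the later day or CD61-high cells are higher) over 1. In bulk RNA, fewer cells of a type and less RNA per cell cannot be told apart.

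Gpr35 was close to the detection limit at day 1 and at its highest at day 14. At day 1 the libraries were at 0.649 and 0.251 CPM, which are 22 and 8 reads. At day 7 they were at 40.0 and 36.9 CPM and at day 10 at 20.5 and 17.8 CPM. At day 14 they were at 127.4 and 126.8 CPM, from 4371 and 3488 reads. The order of the levels was day 1, day 10, day 7 and day 14, and no library overlapped with those of a neighbouring day in this order.

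Mean CPM and SD (n = 2 each) were 0.450 ± 0.282 for day 1, 38.4 ± 2.23 for day 7, 19.2 ± 1.88 for day 10 and 127.1 ± 0.454 for day 14. The day 1 value is the least precise, and its libraries have exact Poisson 95% intervals of 0.407 to 0.983 and 0.108 to 0.494 CPM, which overlap. The ratio of mean CPM to day 1 was 85.4 at day 7, 42.6 at day 10 and 282 at day 14. These ratios move with the day 1 library used, and against each day 1 library alone the day 7 ratio was 59.2 or 153, the day 10 ratio 29.5 or 76.3 and the day 14 ratio 196 or 506. From pooled reads (7859 against 30) the day 14 ratio was 279, with an exact 95% interval of 195 to 413 that covers counting error only. The day 14 mean was 3.31 times that of day 7 and 6.63 times that of day 10.

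Among all genes ordered by CPM per length, Gpr35 stood at positions 14299 and 16072 in the day 1 libraries. The day 7 libraries put it at 5924 and 6186, those of day 10 at 8234 and 8553, and those of day 14 at 2194 and 2276. Its rise against day 1 ranked 12 of 10313 genes (those averaging 5 CPM or more) for day 7, 34 for day 10 and 3 for day 14. On the log2(CPM + 1) scale used for that order, the differences from day 1 were 4.78, 3.81 and 6.48, smaller than those of the CPM ratios because the added 1 is larger than the day 1 level.

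**Figure D1:**
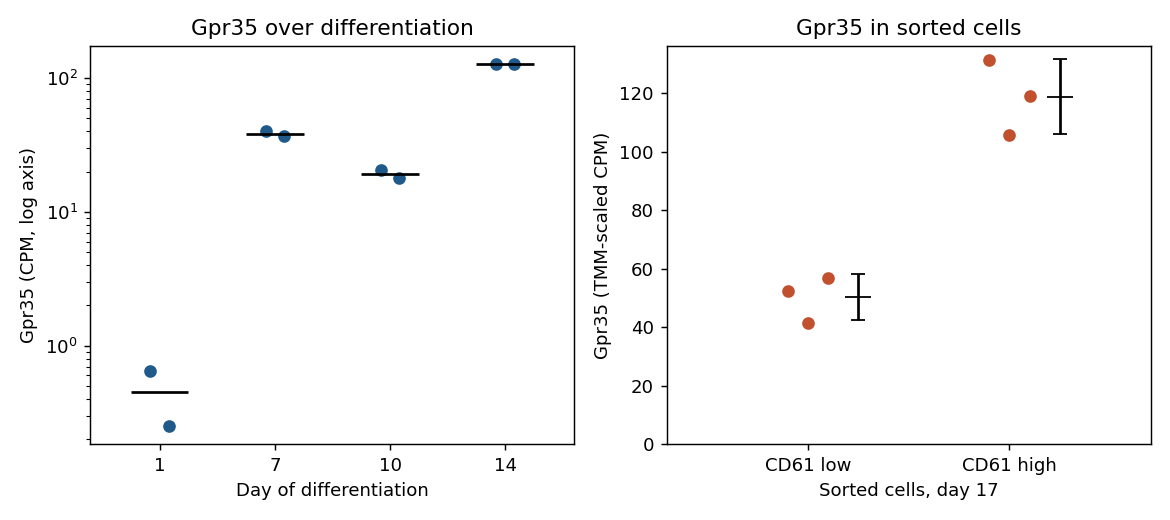
Gpr35 in every library. Left, CPM on a log axis at each day of differentiation (points, libraries; lines, means), with day 10 at 20.5 and 17.8 CPM between day 1 and day 7; right, TMM-scaled CPM in CD61-low and CD61-high cells (points, libraries; bars, mean ± SD), where the lowest CD61-high library is above the highest CD61-low library.

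The other 4 of the 5 largest rises were Egln3, Ndufa4l2, Col22a1 and Car9. Egln3 encodes a prolyl hydroxylase that marks hypoxia-inducible factor (HIF) for degradation, Ndufa4l2 a mitochondrial protein of the respiratory chain, Col22a1 a fibril-associated collagen and Car9 a membrane carbonic anhydrase. On the log2(CPM + 1) scale their rises at day 14 were 6.98 for Egln3, 6.53 for Ndufa4l2, 6.19 for Col22a1 and 6.18 for Car9, with Gpr35 between Ndufa4l2 and Col22a1. Just outside this set stood Ncf1 (a subunit of the phagocyte NADPH oxidase) at 6.15, Selenbp1 (a selenium-binding methanethiol oxidase) at 6.01 and Ackr3 (a scavenging receptor of the chemokine CXCL12) at 6.01. These values chose the set and support nothing further.

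Gpr35 was the least abundant of the 5 at day 14 in CPM, at 127 against 252 for Car9, 287 for Col22a1, 450 for Egln3 and 458 for Ndufa4l2. It also had the deepest dip between day 7 and day 10. The ratio of mean CPM at day 10 to day 7 was 0.498 for Gpr35, 0.532 for Egln3, 0.649 for Ndufa4l2, 0.840 for Car9 and 0.938 for Col22a1. Whether these ratios differ between genes was not tested.

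**Figure D2:**
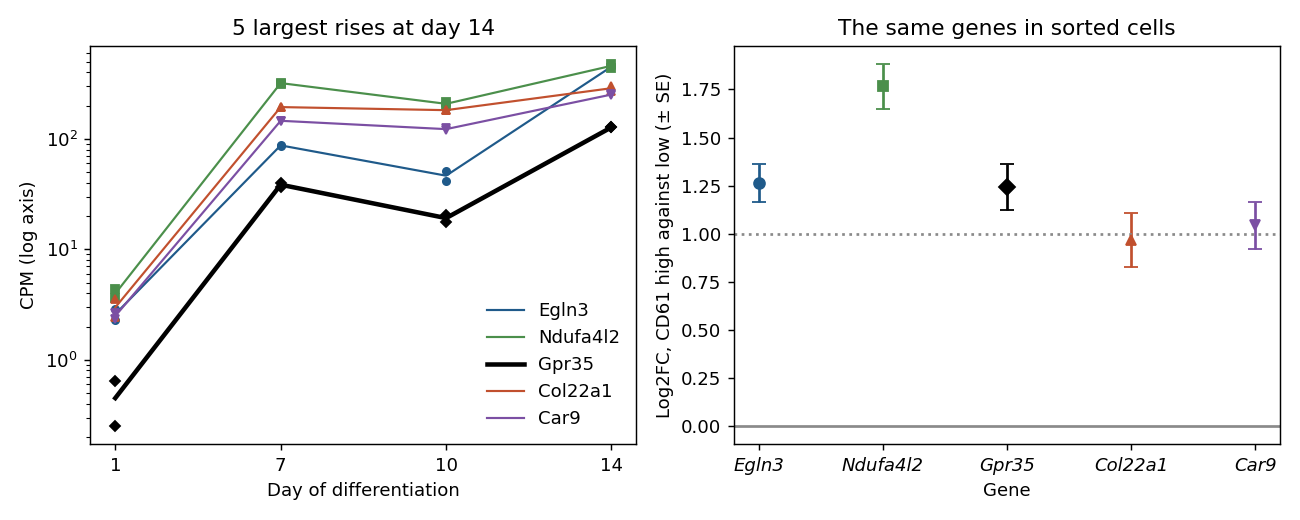
The 5 genes with the largest rises at day 14. Left, CPM on a log axis by day (points, libraries; lines through means), with Gpr35 lowest at each day; right, Log2FC of CD61-high against CD61-low cells with its standard error (edgeR, 3 against 3 libraries), all above 0 and Col22a1 at 0.97 just short of the dotted threshold of 1.

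The level of Gpr35 did not climb steadily, and days 7 and 10 were compared because the choice of the gene used neither. In the 4 libraries of these days, Gpr35 had a Log2FC of -0.97 (SE 0.07) at day 10, with an adjusted p of 1.11e-07 in limma over 12725 genes. Both day 10 libraries were below both day 7 libraries. The difference is past the p threshold and short of the fold threshold, so Gpr35 was not called. It was past the fold threshold, at -1.08, in edgeR on the recovered reads and at -1.05 after quantile normalization. In limma without the filter on low values, over 22879 genes, it had an adjusted p of 0.0241 and was not past the p threshold. Of all genes, 1.43% were called higher and 0.786% lower at day 10 than at day 7.

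Gpr35 was higher in CD61-high cells. The CD61-low libraries were at 52.2, 41.5 and 56.9 TMM-scaled CPM and the CD61-high libraries at 131.5, 105.8 and 119.1. The groups did not overlap, and every CD61-high library was above every CD61-low library. Mean levels were 50.2 ± 7.89 and 118.8 ± 12.8 TMM-scaled CPM (SD, n = 3 each), a ratio of 2.36. The Log2FC was 1.24 (SE 0.12), with an adjusted p of 1.74e-05 over 12077 genes in edgeR's quasi-likelihood test, and Gpr35 was called higher.

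Leaving out any library gave a Log2FC of 1.12 to 1.32 and kept the call. With library sizes alone in place of TMM, the Log2FC was 0.94, short of the fold threshold, while the median of all genes moved by -0.29, so the distance of Gpr35 from the median gene was nearly the same. That scaling also turned the count of all genes from 585 higher and 528 lower to 316 higher and 963 lower.

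Per length, Gpr35 was at 28.4, 24.4 and 33.9 TPM (abundance scaled to transcript length and library total) in the CD61-low libraries and at 66.8, 48.8 and 57.4 TPM in the CD61-high libraries. It stood at positions 5164 to 6183 of all genes by TPM in CD61-low cells and at positions 2380 to 3056 in CD61-high cells. The sorted values come from another pipeline than the time course and are not set against its levels.

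The estimated counts of Gpr35 came almost entirely from Gpr35-203 and Gpr35-205, with Gpr35-202 added in CD61-high cells. Gpr35-203 had 763, 546 and 756 estimated counts in the CD61-low libraries and 1278, 989 and 938 in the CD61-high libraries. Gpr35-205 had 328, 339 and 410 in CD61-low and 863, 728 and 714 in CD61-high. Gpr35-202 had 0 in all 3 CD61-low libraries and 98.8, 121 and 373 in CD61-high. The groups did not overlap for any of the 3 transcripts, and the counts of Gpr35-202 spread most among the CD61-high libraries.

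Gpr35-201 and Gpr35-206 were at 0 in all 6 libraries, and Gpr35-204 had 1.09 estimated counts in a single CD61-high library and 0 elsewhere. Gpr35-201 shares its start with Gpr35-205, so this start is represented in the counts by the transcript with the whole reading frame.

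In the test over 37548 transcripts, of which 0.903% were called higher and 0.629% lower in CD61-high cells, Gpr35-205 had a Log2FC of 1.35 (SE 0.14) and an adjusted p of 0.00476 in edgeR and was called higher. That call was lost when any of the 6 libraries was left out, with adjusted p between 0.0137 and 0.0333 and a Log2FC of 1.26 to 1.46, and also with the replicate number as a block, with an adjusted p of 0.0630. Gpr35-203 had a Log2FC of 0.89 (SE 0.19) with an adjusted p of 0.0439 and was not called. By estimated counts, Gpr35-202 was at least 196-fold higher in CD61-high cells against a floor of 3 counts over the pooled CD61-low libraries. That bound covers counting error only, not error in how reads were split between transcripts. CD61-high library 3 holds most of the Gpr35-202 counts, and without it the bound was 109-fold. Gpr35-202 passed the filter on low counts only through the CD61-high libraries, so no test of it is given.

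Gpr35-203 held 69.9%, 61.7% and 64.9% of the Gpr35 estimated counts in the CD61-low libraries and 57.0%, 53.8% and 46.3% in the CD61-high libraries. The difference in mean share was -13.1 percentage points (65.5% ± 4.12 against 52.4% ± 5.50, SD, n = 3 each), with a two-sided exact permutation p of 0.1, the smallest that 3 against 3 libraries can give. Shares of TPM differed by -12.5 points. Per length the order of the transcripts turned in 4 libraries, since Gpr35-205 held more of the Gpr35 TPM than Gpr35-203 in all 3 CD61-high libraries (49.2%, 51.2% and 45.9% against 44.4%, 42.4% and 36.2%) and in CD61-low library 2 (50.7% against 49.3%). The share of Gpr35-205 was 34.5% ± 4.12 and 37.8% ± 2.25, and that of Gpr35-202 was 0% and 9.82% ± 7.55 (SD, n = 3 each).

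The split between transcripts is an estimate that may rest on more than the first exon. In the files Gpr35-205 is 2647 bases long and Gpr35-202 is 3409, whereas GENCODE M39 gives 4002 and 3936, and Gpr35-203 is 4214 bases in both. Reads in the 3′ part of the last exon could then be assigned to Gpr35-203 without any read of its first exon. A shift of reads along the shared last exon and a shift in start use cannot be told apart in these files, and the sum over transcripts does not depend on this split.

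**Figure D3:**
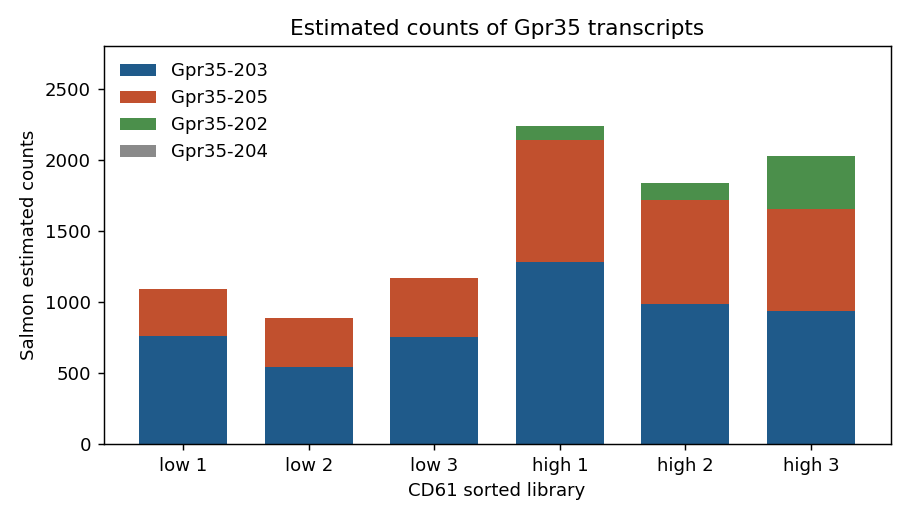
Salmon estimated counts of Gpr35 transcripts in the 6 sorted libraries, stacked. Gpr35-203 is the largest share of the estimated counts in every library, and Gpr35-202 is seen in the 3 CD61-high libraries with 98.8 to 373 counts and in no CD61-low library.

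To name the genes whose pattern is most like that of Gpr35, Pearson's r of log2(CPM + 1) over the 8 differentiation libraries was computed for 10312 other genes averaging 5 CPM or more. The 10 highest r were between 0.996 and 0.999, in descending order for Bnip3, Ak4, Ackr3, Hspb2, Crocc, Dok5, Pygl, Rtkn2, Pfkl and Synpo2l. The points share libraries and depth, and with 4 days the measure describes little more than the order and spacing of 4 means. All 10 had a lower mean at day 10 than at day 7, which follows from how they were chosen.

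Bnip3, a mitophagy receptor, had the highest r, at mean levels of 6.62, 89.5, 56.2 and 220.5 CPM in the order of the days. Ak4, a mitochondrial adenylate kinase, was at 1.85, 35.4, 18.4 and 91.6 CPM. Pygl, the liver form of glycogen phosphorylase, was at 0.292, 22.3, 11.1 and 69.5 CPM, the closest of the 10 to Gpr35 in its low start. Crocc, the rootletin gene, went only from 31.9 to 86.5 CPM, so a high r did not mean a rise of like size.

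The sort was not used to choose these genes. In it, 6 of the 10 were called higher in CD61-high cells and none lower by edgeR and by DESeq2, with a median Log2FC of 1.13, where 4.84% of all genes were called higher. A nearer background is the 864 genes tested in the sort that were called higher at day 14, of which 41.9% were called higher in CD61-high cells. Ackr3 had a Log2FC of 1.60 (SE 0.14, edgeR adjusted p 7.69e-06), Hspb2, a small heat shock protein, 1.56, and Dok5, a docking protein of receptor tyrosine kinases, 1.35. Bnip3 was at 1.24, like Gpr35, and Ak4 at 1.25, and Pygl passed the threshold at 1.01. Rtkn2 at 0.97, Pfkl (phosphofructokinase) at 0.84, Synpo2l (an actin-binding protein) at 0.82 and Crocc at 0.39 were not called.

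The choice of the 10 depends on the measure. With a pseudocount of 0.1 all 10 were among the first 100 genes but 2 stayed among the first 10, and with TMM-scaled CPM 6 stayed. By Spearman's rank correlation 30 genes tie at the highest value of 1, among them Rtkn2 and Synpo2l. The other 8 were at 0.929 to 0.976, and 6 of the 10 were among the first 100 genes, with the last at rank 292. Among the 50 genes with the highest r, 49 could be tested in the sort and 25 were called higher and none lower, and of 98 tested among the first 100, 39 were called higher and none lower. These shares are read against the 41.9% of all day 14 risers called higher in the sort, and that of the first 100 is not above it.

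HIF target genes were described because Egln3, Ndufa4l2 and Car9, which belong to this group, stand beside Gpr35 among the largest rises. HIF is the transcription factor that accumulates when oxygen is low and activates genes of glycolysis, pH control and blood vessel growth. The list of 26 genes was drawn up with results of these data known, so its direction is not independent evidence in any comparison, the sort included. Of 25 members tested, of which Ankrd37 and Adm passed the filter on low values only through the later days, 20 were called higher and none lower at day 14, where 7.51% of all genes were called higher and 5.9% lower. At day 7, 20 were called higher and none lower (4.49% and 4.62% of all genes), and at day 10, 16 were called higher and none lower (6.06% and 4.42%). The 3 comparisons share the day 1 libraries.

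Between day 7 and day 10, 5 of the 25 HIF targets were called lower and none higher, where 0.786% of all genes were called lower and 1.43% higher, and their median Log2FC was -0.62. Without the filter on low values limma called 0 of the list lower, and no gene of the whole table in either direction, although 8233 of 22879 genes had an unadjusted p below 0.05. The 5 called lower with the filter were Ankrd37 (an ankyrin repeat protein) at -3.16, Adm (the peptide hormone adrenomedullin) at -2.16, Ddit4 (an inhibitor of mTOR complex signaling) at -1.51, Bhlhe40 (a transcriptional repressor) at -1.49 and Ero1a (an oxidase of the endoplasmic reticulum) at -1.23. Gpr35, at -0.97, lay below the list's median, close to P4ha1 (a collagen prolyl hydroxylase) at -0.996 and Egln3 at -0.90. Kdm3a, a histone demethylase, was at 0.43 and Pfkfb4, a regulator of glycolysis, at 0.62, so the list did not move in a single direction.

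In the sort, 14 of the 25 HIF targets were called higher in CD61-high cells and none lower, where 4.84% of all genes were called higher and 4.37% lower, with a median Log2FC of 1.04 beside 0.00 over all genes. Of the 20 called higher at day 14, 12 (60.0%) were called higher in the sort, beside 41.9% of all genes that were called higher at day 14 and tested in the sort. With library sizes alone 4 were called. Gpr35, at 1.24, was near Bnip3 at 1.24, Mxi1 (a repressor of the MAX network) at 1.23 and Egln3 at 1.26. Adm at 2.01 and Ndufa4l2 at 1.77 were highest. Ero1a at -0.13 and Ddit4 at -0.35 were not called and lay on the other side of 0. The likeness to Gpr35 over the time course also varied within the list, from an r of 0.999 for Bnip3 and 0.996 for Egln3 to 0.28 for Pfkfb3 and -0.82 for Pfkfb4, both enzymes of fructose-2,6-bisphosphate.

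**Figure D4:**
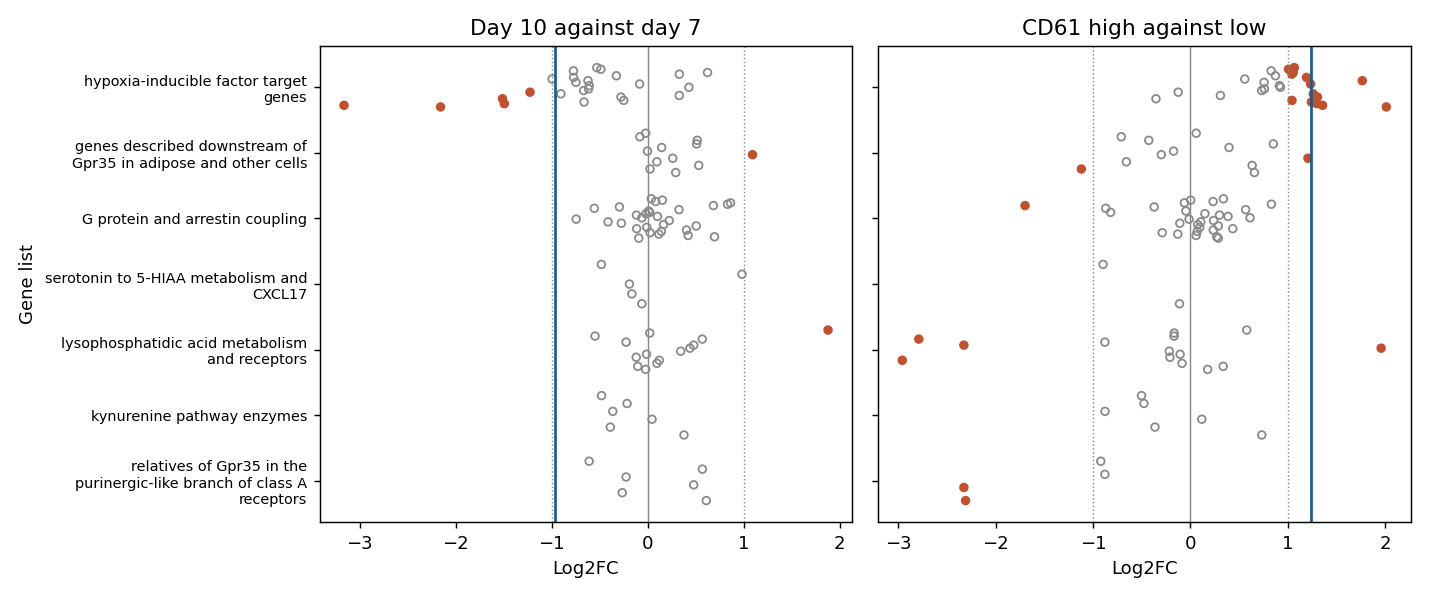
Log2FC of the tested and reported members of 7 gene lists, for day 10 against day 7 (left, limma) and CD61-high against CD61-low cells (right, edgeR). Filled points are called genes, dotted lines the fold threshold and the vertical blue line Gpr35, which lies among the HIF targets at -0.97 and 1.24 in the respective panel.

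Enzymes and transporters of the kynurenine pathway, the source of kynurenic acid, gave no call in any comparison. Of 15 listed genes 6 could be tested, and 0 of 6 is near the share over all genes (7.51% higher and 5.9% lower at day 14, 4.84% and 4.37% in the sort). At day 14 limma gave 6 of them an unadjusted p below 0.05, 1 higher and 5 lower, and edgeR gave 5 in the sort, 1 higher and 4 lower, but none passed the fold threshold, and edgeR on recovered reads and DESeq2 called none either. Kyat3, an aminotransferase that forms kynurenic acid, was at 9.27 CPM at day 1 and 4.67 CPM at day 14, with a Log2FC of -0.85 at day 14 and -0.88 in the sort. Kyat1, an aminotransferase of the same step, was at 5.84 and 3.87 CPM. Got2, which can also catalyze it, was at 94.6 and 68.9 CPM. The mean levels of these 3 genes at day 14 were below those of day 1.

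Of 18 genes of lysophosphatidic acid metabolism and its receptors, 14 were tested. At day 14, 1 was called higher and 1 lower, near the share over all genes (7.51% higher, 5.9% lower). In the sort 1 was called higher and 3 lower, beside 4.84% and 4.37% of all genes. At day 10 against day 7, 1 was called higher and none lower, beside 1.43% and 0.786% of all genes. Lpar3, a receptor of the Edg family, was called higher at day 14, from 3.55 ± 0.260 to 42.7 ± 2.38 CPM (SD, n = 2 each), and was called higher in CD61-high cells with a Log2FC of 1.96 (SE 0.14, edgeR adjusted p 2.24e-06). Unlike Gpr35, its mean level at day 10, 52.4 CPM, was above those of day 7 and day 14. Enpp2, the autotaxin gene whose product makes lysophosphatidic acid outside the cell, was at 13.3 CPM at day 1 and 10.7 CPM at day 14 and was called lower in CD61-high cells, at -2.96. Pla1a, a phospholipase, was called lower at day 14, at -1.46, and in the sort, at -2.79. Lpar4, a receptor of the same branch as Gpr35, was called lower in the sort, at -2.33. Plpp3, a phosphatase that degrades lysophosphatidic acid, was called higher at day 10 than at day 7, at 1.88, opposite in sign to Gpr35.

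From 9 genes of serotonin metabolism with Cxcl17, 5 were tested in the time course and 2 in the sort. Slc6a4, the serotonin transporter, was at 0.181 CPM at day 1 and 2.03 CPM at day 14 and passed the filter only through the later days. Maoa, the monoamine oxidase on the way to 5-HIAA, was at 80.2 and 43.0 CPM, with a Log2FC of -0.89 that was not called, and at -0.90 in the sort. Neither edgeR nor DESeq2 called a gene of this list in the sort, a count near the share over all genes (4.84% higher, 4.37% lower). In edgeR 1 of the 2 had an unadjusted p below 0.05.

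Most relatives of Gpr35 among receptors stayed below the filter on low values. Of 35 genes of its branch of class A receptors, 7 could be tested in the time course and 5 in the sort. In CD61-high cells 1 of the 5 was called higher and 2 lower, where 4.84% of all genes were called higher and 4.37% lower. The 2 called lower were F2r, the thrombin receptor gene, and Lpar4, at -2.31 and -2.33. P2ry2, a nucleotide receptor, at -0.92 and Lpar6 at -0.88 were not called. Gpr35 was at 127 CPM at day 14, and the next of the 7 was F2r at 8.21 CPM.

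Over the 68 genes whose symbol is Gpr and a number, Gpr35 was the most or second most abundant per length in each day 14 and CD61-high library. Its place by CPM per length was 21 and 25 in the day 1 libraries, 3 and 4 at day 7, 9 in both at day 10 and 2 in both at day 14. By TPM it was at places 3, 4 and 3 in the CD61-low libraries and 1, 2 and 1 in the CD61-high libraries. Mean TPM over the sorted libraries was 52.8 for Gpr108, 43.3 for Gpr35, 29.3 for Gpr19, 28.3 for Gpr107 and 24.9 for Gpr137. The other 4 were not called in the sort, and Gpr19 was at a Log2FC of 0.97.

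At day 14, where 7.51% of all genes were called higher and 5.9% lower, 21 other genes of this naming group were tested. Of these, 2 were called higher and 3 lower. Gpr19 (6.23 to 25.2 CPM) was among those called higher, and Gpr39 (4.22 to 0.393 CPM) and Gpr176 (20.4 to 6.47 CPM) were called lower. Gpr63, at 1.54 CPM at day 1 and 0.156 CPM at day 14, passed the filter only through day 1. In the sort, where 4.84% of all genes were called higher and 4.37% lower, 18 others were tested. Of these, 2 were called higher and 3 lower, and Gpr39 at -3.50 and Gpr176 at -2.84 were among the lower.

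Genes that couple such receptors to the cell were mostly above the filter. Of 35 genes of G proteins, arrestins, receptor kinases, regulators of G protein signaling and their effectors, 30 were tested. At day 14, 4 were called higher and 2 lower, where 7.51% of all genes were called higher and 5.9% lower, and their median Log2FC was 0.09. Arrb1, beta-arrestin 1, went from 26.6 CPM at day 1 through 69.2 and 75.1 CPM to 171.6 CPM at day 14, and Arrb2 was at 30.8 and 33.3 CPM at days 1 and 14. Gnaz, a Gi-family subunit, Gng11, a gamma subunit, and Rgs3, a regulator that ends G protein signaling, were the other 3 called higher. Gnaz, at 0.870 CPM at day 1 and 4.38 CPM at day 14, passed the filter only through the later days. Grk5, a receptor kinase, and Rgs4, a regulator of G protein signaling, were called lower.

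The G12/13 subunit genes Gna12 and Gna13 were at 109.6 and 146.9 CPM at day 1 and at 100.9 and 240.0 CPM at day 14, and neither was called. In the sort only Rgs2, another regulator of G protein signaling, was called of the 30, lower at -1.70, which is near the share over all genes (4.84% higher, 4.37% lower), while Arrb1 was at -0.13. Between day 7 and day 10 limma called none of the 30, a count near the share over all genes (1.43% higher, 0.786% lower). Of the 30, 21 had an unadjusted p below 0.05 in limma (14 higher, 7 lower), while edgeR on recovered reads called 1 higher and 1 lower.

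Of 15 genes described downstream of Gpr35 in adipose tissue and other cells, 12 were tested. At day 14, 3 were called higher and none lower, where 7.51% of all genes were called higher and 5.9% lower. Ptgs2, the cyclooxygenase 2 gene, was called higher at day 14, from 13.9 to 96.3 CPM, as were Fos and Atp1b3, a subunit of the sodium pump. Rgs14, a regulator of G protein signaling, was at a Log2FC of 0.97 and was not called. In the sort Fos was called higher at 1.21 and Atp1b1, another sodium pump subunit, lower at -1.12. Jun, which pairs with Fos in AP-1, was called higher at day 10 than at day 7, at 1.09. In the sort 1 of 12 was thus called in each direction, beside 4.84% and 4.37% of all genes, and the median Log2FC of the 12 was -0.06.

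Within 250 kb of Gpr35 32 other genes are annotated, 15 are in the files and 8 were tested in the time course. At day 14 limma called none of the 8, a count near that of all genes (7.51% higher, 5.9% lower), with 6 at an unadjusted p below 0.05 (5 higher, 1 lower), and edgeR on recovered reads called none. Their Log2FC ranged from -0.65 for Capn10, a calpain protease, to 0.85 for Gpc1, the heparan sulfate proteoglycan glypican 1. Capn10 overlaps the annotated span of Gpr35 at its upstream end (92862093 to 92881692), which touches only the first exon of Gpr35-204. Its mean level was 52.1 CPM at day 1 and 32.8 CPM at day 14.

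In the sort, where 4.84% of all genes were called higher and 4.37% lower, 6 of these neighbors were tested. Only Gpc1 was called, higher at 1.56 (SE 0.08, edgeR adjusted p 3.26e-07). Capn10 was at 0.07 and Rnpepl1, an aminopeptidase gene, at 0.22. Gpc1 starts 119.5 kb before Gpr35, with Ankmy1, Dusp28, Rnpepl1 and Capn10 between them, and Dusp28, a phosphatase gene, was at 0.37 and not called.

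Markers of cell types known to express Gpr35 were checked beside it. The summed level of 10 macrophage and monocyte markers was 14.4 to 14.9 CPM at day 1 and 13.3 to 14.9 CPM at day 10. It was lower, at 6.93 to 7.74 and 8.54 to 9.12 CPM, at days 7 and 14, where Gpr35 was highest. Fcer1g, Cd14 and Cd68 make up most of this sum and did not move together. From day 1 to day 14 Fcer1g went from 6.96 to 1.96 CPM and Cd14 from 5.14 to 2.86 CPM, while Cd68 rose from 1.66 to 3.34 CPM. In the sort the sum was 18.3 to 23.5 in CD61-low and 13.2 to 14.0 in CD61-high libraries, opposite to Gpr35. Adgre1, the F4/80 gene, was at 0 in all 14 libraries. The sum of 10 T cell, mast cell and neutrophil markers did not pass 0.176 CPM in any library, and 6 of them, Cd3e and Cpa3 included, were at 0 throughout.

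The sum of 9 intestinal epithelium markers was at most 1.08 CPM, with Epcam and Cdx2 at 0 in all libraries. For 6 adipocyte markers the sum was at most 0.755 CPM, with Cidec and Lep at 0, and for 5 endothelial markers at most 0.861 CPM, with Emcn at 0. The osteoblast and osteocyte marker sum was 62589 to 62802 CPM at day 1 and 56315 to 65221 at day 14, and 27667 to 33834 in CD61-low against 77143 to 83299 TMM-scaled CPM in CD61-high cells, so in the sort it moved with Gpr35. Col1a1 and Col1a2, the type I collagen genes, make up most of this sum. Without them it was 952 to 961 CPM at day 1, 8749 to 8866 at day 7, 5860 to 6192 at day 10 and 7077 to 7120 at day 14, and 2046 to 2571 in CD61-low against 6991 to 7175 TMM-scaled CPM in CD61-high cells. Of 12 markers tested, 8 were called higher at day 14, 3 of which passed the filter only through the later days, and none lower, where 7.51% of all genes were called higher and 5.9% lower. The part of these markers in the differences of Gpr35 was not tested.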

How the data were processed

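RNA of Ocy454 cells was measured in 14 libraries, 8 of the differentiation and 6 of the sort. For the differentiation STAR was the aligner and HTSeq-count the counter of the authors, who deposited CPM scaled to each library's total with no further normalization. The genome build and annotation of that table are not given in the paper's text, and the submitters' processing notes list GRCm39, STAR, HTSeq and Salmon without saying which table each served. Every CPM value (100.0%) was a whole number of reads to a tolerance of 0.01, so read numbers were recovered. For the sort the authors deposited Salmon estimated counts and TPM per transcript (GRCm39 transcriptome, release 104).

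Estimated counts were summed per gene with GENCODE M39 (115556 of 116747 transcripts matched, 99.3% to 99.4% of counts), rounded, scaled by TMM over all genes and tested with edgeR 4.0.16 in R 4.3.3 where all 6 libraries held 5 or more normalized counts. For transcripts 3 such libraries were enough. The CPM were tested as log2(CPM + 1) with limma 3.58.1 and a trend, for genes above 1 CPM in at least 1 library. P-values were adjusted by Benjamini-Hochberg over all features of a fit. The fits were tested on simulated data. Day 10 against day 7 used only those 4 libraries. The comparisons with day 1 used all 8. Motifs were searched in GRCm39. Sequences and coordinates are those of GRCm39 with GENCODE M39. Counting intervals and floors cover counting error only.

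Gpr35, the gene lists and the tests were chosen with earlier results of these data known. The genes named are Gpr35, the other 4 largest rises, Itgb3, list members, genes within 250 kb, the 10 genes most like Gpr35 by r and, among the numbered Gpr genes, the 5 highest by TPM and the called genes with the largest changes. Ncf1, Selenbp1 and Ackr3 are named as the genes just outside the 5. Alternatives were DESeq2 1.42.0, other normalizations, filters and pseudocounts, the replicate number as a block and leaving out each library. Some genes and sequences of the lists are not reported here.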

Additional observations from a re-analysis of the deposited data

How the results depend on the processing

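Gpr35 kept its direction in the sort and between days 7 and 10 under every setting run. In the sort, library sizes alone gave a Log2FC of 0.94, and all genes then came to 316 higher and 963 lower, with 4 HIF targets and 3 of the 10 most similar genes called. Leaving out a library gave 1.12 to 1.32. For Gpr35-202, which passed the filter only through the CD61-high libraries, DESeq2 gave a Log2FC of 10.33, which depends on how counts of 0 are treated and is not used as a test.

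Between day 10 and day 7, Gpr35 passed the fold threshold with a pseudocount of 0.1 (-1.003), quantile normalization (-1.05) and edgeR on recovered reads (-1.08), and ranged from -1.07 to -0.87 without single libraries. Counts of genes were 376 higher and 170 lower with the pseudocount of 0.1, 316 and 208 with edgeR, and 0 and 0 with limma without a filter, where 8233 of 22879 genes had an unadjusted p below 0.05, 0 HIF targets were called lower and Gpr35 had an adjusted p of 0.0241. At day 7, edgeR called 876 genes higher. Scaled by TMM, Gpr35 was at 129 CPM at day 14. Of the 10 genes most like Gpr35, 2 stayed by Spearman's rank correlation (ties counted as staying), 2 with a pseudocount of 0.1 and 6 with TMM-scaled CPM.

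With the replicate number as a block, Gpr35 in the sort was at 1.25 and Gpr35-205 at 1.35 with an adjusted p of 0.0630, so its call was lost, as it was without any single library (1.26 to 1.46). The labels do not say what libraries of the same number share. Their deviations from the group means correlated at -0.321 to 0.220 in the sort and at -0.0253 to 0.0611 in the time course. The depth limits the day 1 level of Gpr35, which rests on 30 reads. The causes of these shifts were not tested.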
